A study of Homo sapiens with 12 samples.

Results

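The 8 genes described here make or control cholesterol, and they were chosen by name: HMGCS1, IDI1, FDPS, FDFT1, SQLE, INSIG1, SREBF1 and SREBF2. Earlier results of these data were known at the choice, so counts over the 8 genes describe them and are no independent evidence. They are 8 of the 58735 genes in the count and FPKM tables, and 8 of the 17729 genes with enough counts to be tested. RNA-Seq was done on HEK293T cells, a line derived from human embryonic kidney, in 4 groups of 3 libraries, and the study's design names these as independent replicates of 1 cell line. Neither compound was given in the DMSO group. CEP, a clickable electrophilic purine named AHL-Pu-1 that reacts with cysteines, was given at 25 µM for 1 h in serum-free medium. 4SU, or 4-thiouridine, a uridine analog that cells build into RNA, was given at 100 µM for 16 h, and the CEP+4SU group had both. The sample protocol states the CEP dose as 25 mM, whereas the design summary and the methods give 25 µM. One protocol, with UV light of 312 nm at 1 J/cm2, stands for all 12 libraries, and whether cells without 4SU were irradiated, or cells without CEP were kept in serum-free medium, is not stated separately.

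Cholesterol is built from acetyl-CoA by a chain of enzymes, and the genes of this chain are switched on together by the SREBP transcription factors. These factors are held in the endoplasmic reticulum by INSIG proteins and their partner SCAP when sterols are plentiful, and travel to the Golgi to be cut and released when sterols are low. The serum in culture medium brings cholesterol to cells, so that these genes are a known readout of sterol supply in cultured lines.

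Per library, 16569114 to 24644734 fragments were counted on genes. CEP replicate 2 and CEP+4SU replicate 2 stood apart, with 22230 and 22627 genes detected against at least 24376 in the other 10. Without both of these libraries the number of the 8 genes past the threshold was the same in all 7 comparisons. Of 10 genes known from HEK293 cells, 9 had a mean above 1 FPKM, with a summed level of 171 to 185 FPKM per library, and LHX1 had 0.916 FPKM. Of 10 markers of other cells, 2 had a mean above 1 FPKM, COL1A1 with 3.61 FPKM and PMEL with 1.97 FPKM. Both stood above LHX1, PAX2 (1.17 FPKM) and EYA1 (1.69 FPKM) of the HEK293 genes. The sum of the 10 was 4.79 to 7.27 FPKM per library, and CD3E and HBB were at 0 in every library. The libraries are of whole cultures, in which fewer cells of a kind and less RNA per cell cannot be told apart.

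The factor SREBP-2 is the main driver of the cholesterol genes, and its own gene is one of its targets. The promoter of SREBF2, which encodes it, is shown because among the windows found for the 8 genes it alone held CACCCCA, the core of the classic sterol regulatory element. INSIG1 and HMGCS1 are shown beside it as other genes with a window. The stretches are 100 bases long, 5′ to 3′ on the strand of the gene, from RefSeq on GRCh38.p14, and lie before every start annotated near them: chr22:41832955-41833054 (plus strand) for SREBF2, chr7:155297676-155297775 (plus strand) for INSIG1 and chr5:43313514-43313613 (minus strand) for HMGCS1. Capitals mark this core and the CCAAT box, here written ATTGG because it lies on the opposite strand.
SREBF2: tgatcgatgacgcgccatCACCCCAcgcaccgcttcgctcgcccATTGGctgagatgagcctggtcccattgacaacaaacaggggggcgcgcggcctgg
INSIG1: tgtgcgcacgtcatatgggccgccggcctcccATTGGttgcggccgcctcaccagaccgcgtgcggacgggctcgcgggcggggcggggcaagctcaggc
HMGCS1: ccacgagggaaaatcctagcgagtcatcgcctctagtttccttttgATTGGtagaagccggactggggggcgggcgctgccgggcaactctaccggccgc

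RefSeq windows of 250 bases before and 50 after a start were matched for 6 of the 8 genes, 9 windows in all. FDFT1 and SQLE were not matched. On either strand, CACCCCA was found in 1 of the 9 windows, against 8.08% of all 35116 windows, and in SREBF2 it ended 126 bases before the start. CCAAT, the box of the factor NF-Y, was found in 6 of the 9 windows, belonging to 5 genes, against 34.6% of all windows. CACGTG, an E-box, was found in the INSIG1 window alone, against 7.26%. In 1 window of IDI1 a CCAAT on one strand overlapped one on the other, and no other of these matches in the 9 windows overlapped. These matches describe letters in a window and were not tied to binding.

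Levels per transcript length put INSIG1 first and SREBF1 last in each of the 4 groups, with no overlap of either with its neighbour in the order. In DMSO the mean was 22.8 ± 1.65 FPKM for INSIG1 and 5.49 ± 0.238 FPKM for SREBF1 (SD, n = 3). Between them stood FDFT1 at 18.7 ± 0.58 FPKM, SREBF2 at 18.4 ± 0.271 FPKM, SQLE at 18 ± 0.833 FPKM and FDPS at 17.5 ± 1.47 FPKM, whose libraries overlapped from neighbour to neighbour. IDI1 at 12.1 ± 0.621 FPKM and HMGCS1 at 11.1 ± 1.31 FPKM overlapped with each other and lay below FDPS in all 3 libraries. INSIG1 in DMSO ranked above 87.0% of the genes tested by FPKM, and SREBF1 above 58.1%. Between the groups, FDFT1 stood second in DMSO and CEP, and SQLE stood second in 4SU and CEP+4SU, with 16.7 ± 1.14 and 16.2 ± 0.132 FPKM. The gene in second place overlapped the next one in DMSO, CEP and 4SU, and lay clear of it only in CEP+4SU.

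**Figure D1:**
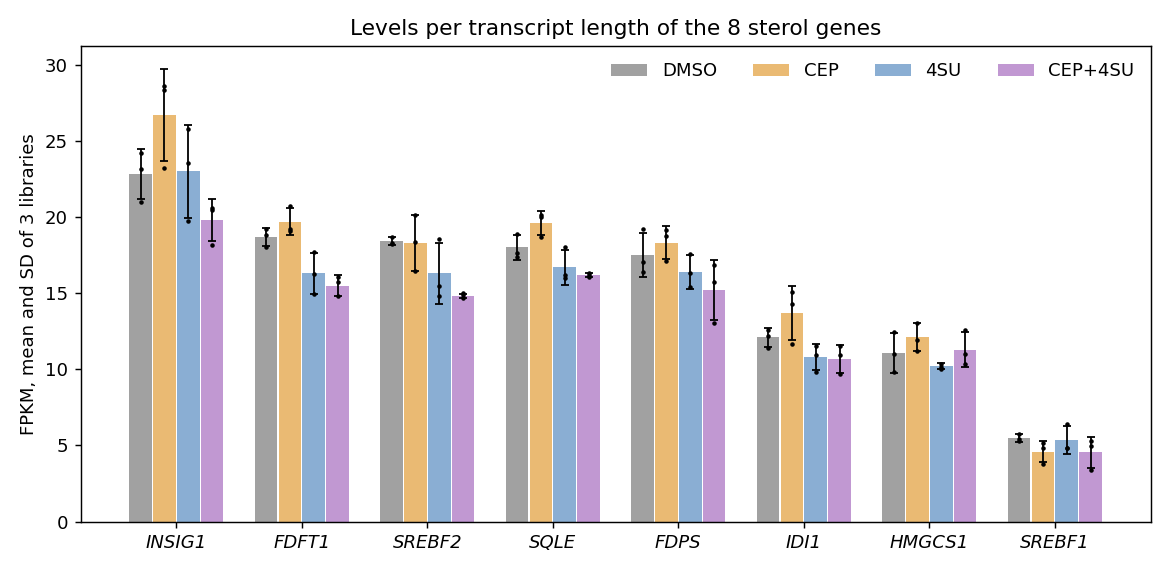
Mean FPKM (vertical axis, from 0) of each of the 8 genes in the 4 groups, with bars for the mean, whiskers for the SD of 3 libraries and dots for single libraries. INSIG1 had the highest mean and SREBF1 the lowest in every group, at 22.8 and 5.49 FPKM in DMSO.

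The counts behind these levels ran from 9654 over the 12 libraries for SREBF1 to 30857 for SREBF2. Of genes with sequence like theirs, INSIG2 had 4938 counts in all and IDI2 40, and none of 8 FDPS pseudogenes had more than 13. SREBF1 (chromosome 17, 17810399 to 17837002, GRCh38, minus strand) shares ground with RAI1 on the opposite strand, which had 14348 counts, more than SREBF1 itself. SREBF2 (chromosome 22, 41833079 to 41907308, plus strand) overlaps SREBF2-AS1, with 1982 counts, and FDPS (chromosome 1, 155308748 to 155320666, plus strand) overlaps RUSC1-AS1, with 1031. Strand use in the counting is not stated, so reads from the shared ground of these pairs cannot be told apart. The other 5 genes, at chromosome 5, 43289395 to 43313512 (HMGCS1), chromosome 10, 1039152 to 1049170 (IDI1), chromosome 8, 11795573 to 11839309 (FDFT1), chromosome 8, 124998497 to 125022283 (SQLE), and chromosome 7, 155297776 to 155310235 (INSIG1), overlapped no gene with more than 69 counts.

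The first question was whether 4SU, with or without CEP, altered the sterol genes. Averaged over CEP, all 8 genes had values below 0 for 4SU, and 1 of them, FDFT1, fell past the threshold (adjusted p of 0.05 or less over the 17729 genes, edgeR's quasi-likelihood test). Of all genes tested, 0.558% passed this threshold, 0.384% passed it with lower values, and 50.7% had values below 0. The median log2 fold change of the 8 genes was -0.204, against -0.002 over all genes tested. At an unadjusted p under 0.05 there were 6 of the 8 genes, all lower with 4SU, against 12.6% of all genes. DESeq2 called 4 of the 8, against 2.2% of all genes, and limma on FPKM values called 0, against 0.164% (pseudocount 1).

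FDFT1 encodes squalene synthase, which commits the pathway to sterols by joining a pair of farnesyl diphosphates. Its level was 100.4, 98.63 and 95.06 CPM (counts scaled to a common library size) in the DMSO libraries and 101.2, 100.2 and 108.9 CPM in the CEP libraries. With 4SU it was 92.4, 84.66 and 78.01 CPM, and with CEP+4SU 82.52, 77.59 and 84.43 CPM. All 6 libraries with 4SU lay below all 6 without, at 77.59 to 92.4 CPM against 95.06 to 108.9 CPM, and FDFT1 was the only one of the 8 genes of which this held, against 0.863% of all genes. The averaged log2 fold change was -0.275 ± 0.0569 (SE), a decrease of 17.3% going by the fit (95% confidence interval -0.394 to -0.155, adjusted p = 0.03425). The call was lost when any of 8 libraries was left out (DMSO 1, 2 or 3, CEP 3, 4SU 2 or 3, CEP+4SU 1 or 3), with adjusted p between 0.0621 and 0.168. It was also lost with upper-quartile scaling, library size alone and limma (adjusted p 0.0593 to 0.0793), while the sign was the same in all 23 alternatives.

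**Figure D2:**
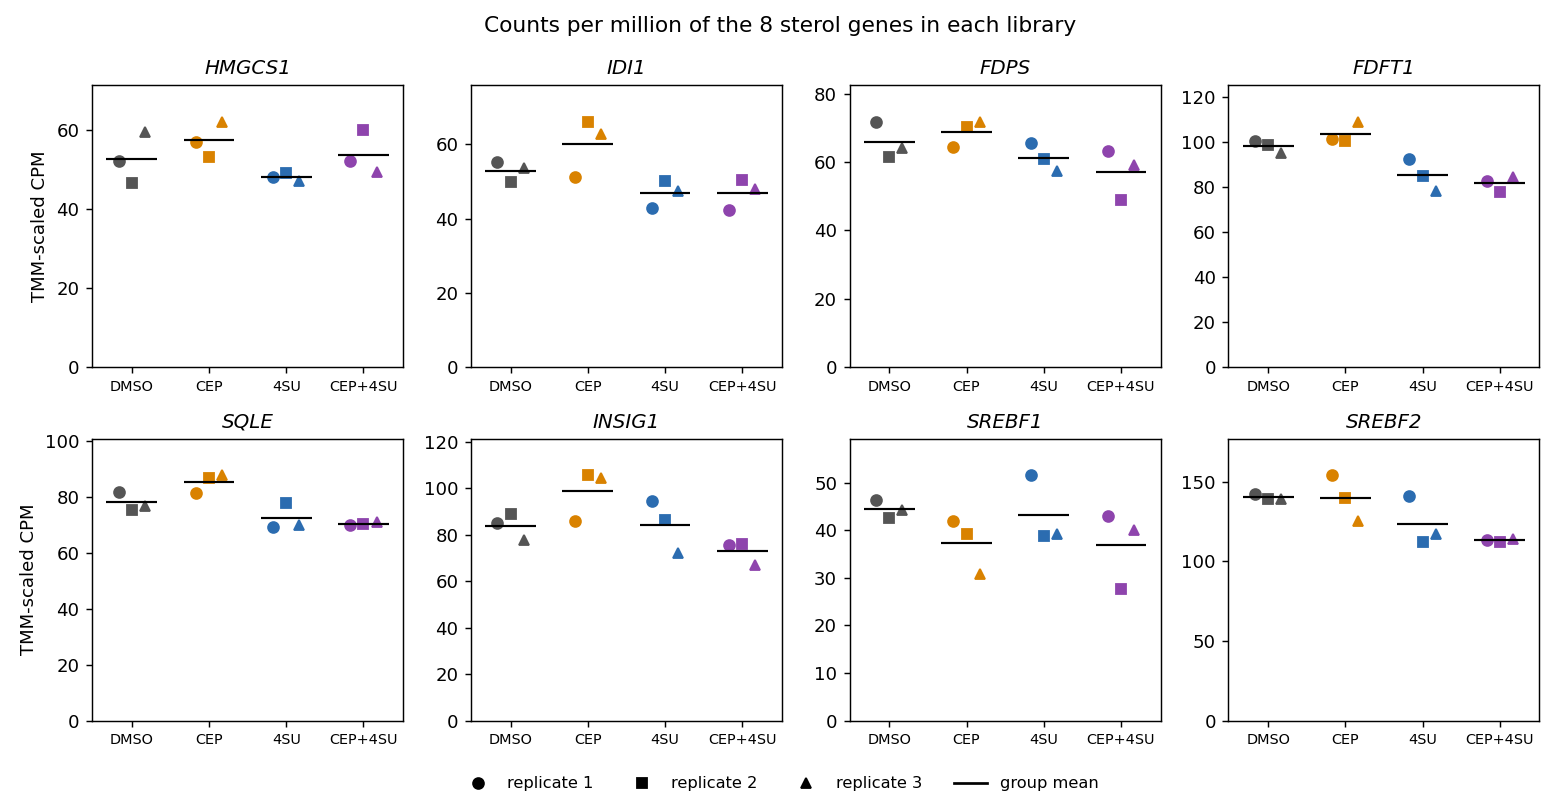
TMM-scaled CPM (vertical axis, from 0) of the 8 genes in each library, by group, with a marker for each replicate number and a line for the group mean. In FDFT1 all 6 libraries with 4SU lie at or below 92.4 CPM and all 6 without at or above 95.06 CPM, and in the other 7 genes the libraries with and without 4SU overlap.

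The other enzymes stood lower with 4SU by smaller or less certain amounts. SQLE encodes squalene epoxidase, the oxygen-using step after squalene synthase. It had 81.89, 75.18 and 76.85 CPM in DMSO and 81.52, 86.78 and 87.68 CPM in CEP, against 69.05, 77.94 and 69.83 CPM in 4SU and 69.79, 70.45 and 71.07 CPM in CEP+4SU. One library, 4SU replicate 2, reached into the range of the libraries without 4SU, and the averaged log2 fold change was -0.193 ± 0.0557 (SE, adjusted p = 0.1241). IDI1 encodes isopentenyl diphosphate isomerase, which readies the isoprene units for joining. Its CPM values were 55.13, 49.81 and 53.5 in DMSO, 51.22, 66.1 and 62.72 in CEP, 42.84, 50.23 and 47.56 in 4SU and 42.44, 50.42 and 47.91 in CEP+4SU. DMSO replicate 2, the lowest without 4SU, lay under the 2 highest with it, and the averaged log2 fold change was -0.263 ± 0.0737 (SE, adjusted p = 0.1145). Both genes passed the threshold with DESeq2 (SQLE adjusted p = 0.043, IDI1 adjusted p = 0.044).

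FDPS encodes farnesyl diphosphate synthase, whose product feeds sterols and prenylated proteins alike. It had 71.86, 61.43 and 64.12 CPM in DMSO, 64.37, 70.28 and 71.83 CPM in CEP, 65.61, 60.96 and 57.31 CPM in 4SU and 63.18, 48.84 and 59.11 CPM in CEP+4SU. The lowest value came from CEP+4SU replicate 2, one of the libraries that stood apart, and the averaged log2 fold change of -0.187 ± 0.0708 (SE) did not pass (adjusted p = 0.258). HMGCS1 encodes HMG-CoA synthase, an early step of the pathway. Its values were 52.01, 46.61 and 59.35 CPM in DMSO, 56.92, 53.2 and 62.01 CPM in CEP, 48.03, 48.93 and 47.09 CPM in 4SU and 52.06, 59.81 and 49.27 CPM in CEP+4SU. The 4SU libraries lay close together, within the range of DMSO, and the averaged log2 fold change was -0.115 ± 0.0718 (SE, adjusted p = 0.5414).

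Among the regulators, SREBF2 had 142.3, 139.1 and 139.4 CPM in DMSO and 154, 139.8 and 125.4 CPM in CEP. It had 141, 112.3 and 117 CPM in 4SU and 113.2, 112.1 and 114.3 CPM in CEP+4SU. The 3 CEP+4SU libraries lay within a narrow band below every library without 4SU, whereas 4SU replicate 1 stood with the DMSO libraries. In 14.6% of all genes the 3 CEP+4SU libraries lay below the 3 of DMSO. The averaged log2 fold change for 4SU was -0.244 ± 0.0636 (SE, adjusted p = 0.09004), which did not pass. Without 4SU replicate 1 it was -0.293 (adjusted p = 0.043) and passed, as did 0.339% of all genes. Of the 12 fits with a library left out, this was the 1 in which SREBF2 passed. It passed in 5 of all 23 alternatives, with adjusted p of up to 0.303 in the others. SREBF1 encodes SREBP-1, the form that also drives fatty acid synthesis. Its CPM values were 46.42, 42.66 and 44.25 in DMSO, 41.96, 39.23 and 30.89 in CEP, 51.57, 38.85 and 39.16 in 4SU and 43.09, 27.65 and 40.08 in CEP+4SU. Its averaged log2 fold change for 4SU was -0.028 ± 0.105 (SE, adjusted p = 0.941), the smallest of the 8.

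INSIG1 encodes the protein that retains SCAP and the SREBPs in the endoplasmic reticulum, and is itself among their targets. It had 85.06, 88.88 and 77.47 CPM in DMSO, 85.88, 105.5 and 104.4 CPM in CEP, 94.41, 86.19 and 72.23 CPM in 4SU and 75.38, 75.96 and 66.9 CPM in CEP+4SU. CEP replicates 2 and 3 were the highest of the 12 libraries, and the 3 CEP+4SU libraries all lay below the 3 of DMSO, as in 14.6% of all genes. Averaged over CEP, its log2 fold change for 4SU was -0.215 ± 0.0737 (SE, adjusted p = 0.2023).

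Taken against DMSO without CEP, 4SU alone called 0 of the 8 genes with edgeR, against 0.00564% of all genes. It called 0 with DESeq2, against 0.107%, and 0 with limma, against 0%. FDFT1 was the 1 gene at an unadjusted p under 0.05, against 6.5% of all genes, with a log2 fold change of -0.205 ± 0.0804 (SE, adjusted p = 0.7287). The 3 4SU libraries of FDFT1 lay below the 3 of DMSO, as did 10.3% of all genes. The values of the 8 genes ran from -0.205 for FDFT1 to 0.008 for INSIG1.

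CEP+4SU, the compounds given together when RNA-binding proteins were captured, also called 0 of the 8 genes against DMSO with edgeR, where 1.64% of all genes passed. DESeq2 called 2, FDFT1 and SREBF2, against 7.03% of all genes, and limma called 0, against 0.118% (pseudocount 1). These 2 were also the genes at an unadjusted p under 0.05, against 21.4% of all genes. SREBF2 had a log2 fold change of -0.309 ± 0.0899 (SE, adjusted p = 0.07533) and FDFT1 one of -0.266 ± 0.0804 (SE, adjusted p = 0.08259). FDFT1, SQLE, INSIG1 and SREBF2, 4 of the 8, had all 3 CEP+4SU libraries below all 3 DMSO libraries, against 14.6% of all genes. HMGCS1 alone had a value above 0, at 0.028 ± 0.101 (SE). This comparison and those of CEP and of 4SU with DMSO share the DMSO libraries, and their values are therefore not independent of each other.

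The second question was whether 1 h of CEP altered these genes, which 2 comparisons without shared libraries address. CEP against DMSO called 0 of the 8 genes with edgeR, against 0.0564% of all genes. It called 0 with DESeq2, against 1.52%, and 0 with limma, against 0.00564%. CEP+4SU against 4SU also called 0 with each of the 3 tools, against 0.0451% of all genes with edgeR, 0.113% with DESeq2 and 0% with limma. Unadjusted p was under 0.05 for 1 of the 8 in the first (INSIG1, against 18.6% of all genes) and 0 in the second (against 7.89%). HMGCS1 had values of 0.124 ± 0.101 and 0.162 ± 0.102 (SE) in the 2 comparisons, and SREBF1 values of -0.252 ± 0.148 and -0.228 ± 0.149 (SE). All 3 CEP+4SU libraries of HMGCS1 lay above all 3 of 4SU, as did 7.58% of all genes, and all 3 CEP libraries of SREBF1 lay below all 3 of DMSO, as did 10.1%.

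INSIG1 was the gene whose values differed most between these 2 comparisons. Its log2 fold change was 0.235 ± 0.104 (SE, adjusted p = 0.2396) for CEP over DMSO and -0.212 ± 0.105 (SE, adjusted p = 0.6187) for CEP+4SU over 4SU. The interaction, which tests the difference itself, was -0.447 ± 0.147 (SE, unadjusted p = 0.006901, adjusted p = 0.9998), and ranked 40 by p among the 17729 genes. It ranged from -0.555 to -0.359 over 23 alternatives and passed the threshold in 0 of them. No interaction passed for any of the 8 genes with edgeR, DESeq2 or limma, where 0% of all genes passed with each. INSIG1 was the 1 gene of the 8 at an unadjusted p under 0.05, against 2.63% of all genes.

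**Figure D3:**
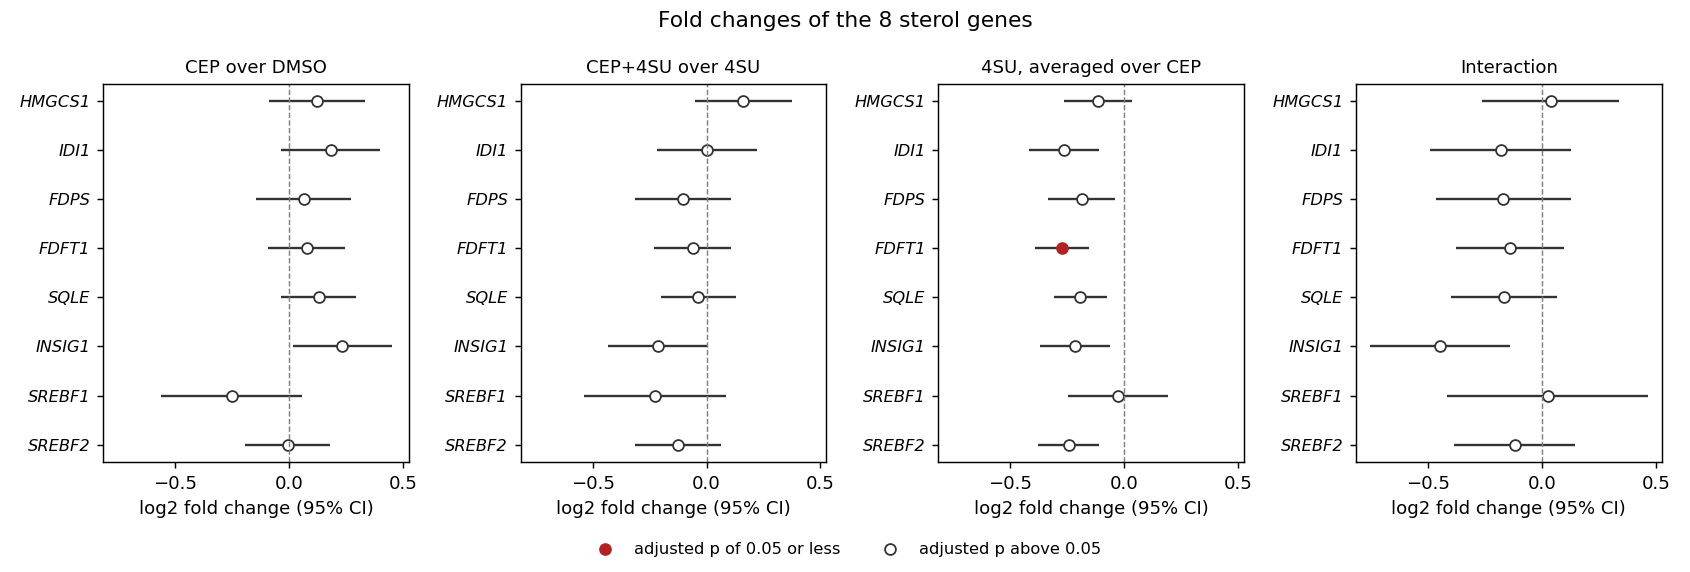
Log2 fold changes of the 8 genes (points) with 95% confidence intervals (lines) for CEP over DMSO, CEP+4SU over 4SU, 4SU averaged over CEP, and their interaction; filled points have an adjusted p of 0.05 or less. FDFT1 under 4SU, at -0.275, is the only filled point, and INSIG1 has 0.235 and -0.212 in the first 2 panels.

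Averaged over 4SU, CEP called 0 of the 8 genes with edgeR, DESeq2 and limma. Of all genes, 0.276% passed with edgeR, 8.42% with DESeq2 and 0.107% with limma. SREBF1 was the 1 gene at an unadjusted p under 0.05, against 24.3% of all genes, with a log2 fold change of -0.24 ± 0.105 (SE, adjusted p = 0.1729). SREBF1 has the highest GC content of the 8, 63.5% of its transcript bases, above 94% of the genes tested. With each library's trend on GC content removed, its value was -0.008 (adjusted p = 0.985), and that of HMGCS1, a gene with 41.6% GC, went from 0.143 to 0.013. For 4SU the same step left FDFT1 past the threshold, and IDI1, SQLE and SREBF2 then passed as well, 4 of the 8 in all, where 3.78% of all genes passed. The 95% intervals for CEP averaged over 4SU ran from -0.46 to -0.02 for SREBF1 and, over the other 7 genes, from no lower than -0.198 (SREBF2) to no higher than 0.293 (HMGCS1).

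The rest of the cholesterol pathway was read from a list of 21 enzymes, which includes the 5 enzymes above. For 4SU averaged over CEP, 17 of the 21 had values below 0, with a median of -0.123, and 1 fell past the threshold, FDFT1, against 0.558% of all genes. There were 10 at an unadjusted p under 0.05, all lower, against 12.6% of all genes. DESeq2 called 4 of the 21, against 2.2%, and limma 0, against 0.164% (pseudocount 1). The lowest value was that of TM7SF2, a sterol reductase, at -0.311 ± 0.0944 (SE, adjusted p = 0.143), and the highest that of CYP51A1, the lanosterol demethylase, at 0.207 ± 0.2 (SE, adjusted p = 0.7332).

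Where both compounds were given, LSS and TM7SF2 fell against DMSO, 2 of the 21 enzymes, where 1.64% of all genes passed. LSS encodes lanosterol synthase, which closes the sterol rings. It had 80.3 to 90.79 CPM in DMSO, 68.42 to 80.61 CPM in CEP, 69.51 to 76.25 CPM in 4SU and 55.55 to 68.5 CPM in CEP+4SU. The CEP+4SU libraries lay wholly below those of DMSO, as they did in 14.6% of all genes, and the log2 fold change was -0.458 ± 0.0931 (SE, adjusted p = 0.02623). TM7SF2 had 38.77 to 40.27 CPM in DMSO and 25.26 to 27.45 CPM in CEP+4SU, and its log2 fold change was -0.599 ± 0.133 (SE, adjusted p = 0.03554). With the trend on GC content removed, the value of LSS was -0.289 (adjusted p = 0.0306) and that of TM7SF2 -0.317, with its call lost (adjusted p = 0.147). Leaving out DMSO 1, 2 or 3 or CEP+4SU 2 or 3 ended both calls, as did 4SU 3 that of TM7SF2, with adjusted p of up to 0.136 for LSS and up to 0.152 for TM7SF2. Of all genes, 0.0766% to 0.404% passed without 1 of these libraries, against 1.64% with all of them. With limma neither passed (adjusted p 0.0864 and 0.0872 for LSS with the 2 pseudocounts, and 0.103 for TM7SF2).

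**Figure D4:**
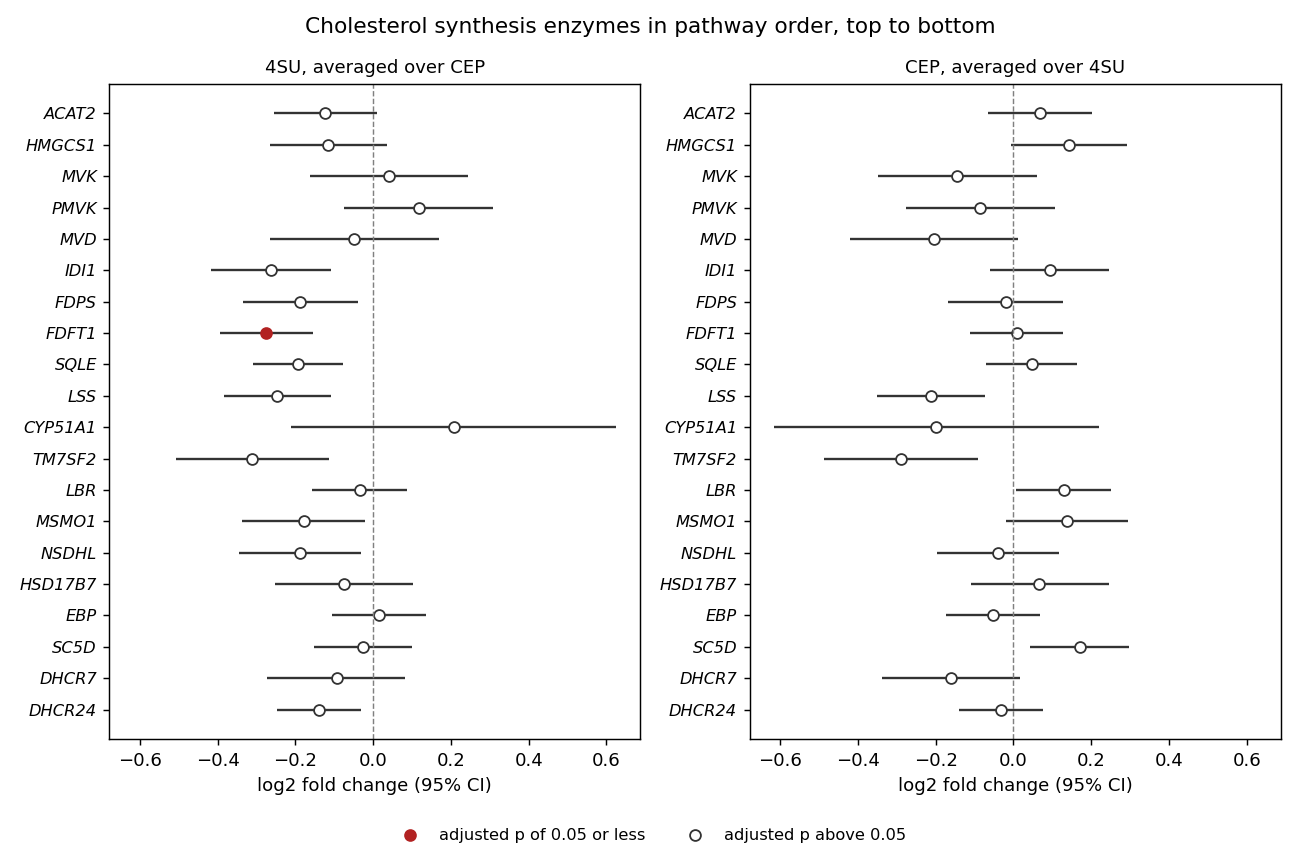
Log2 fold changes (points) with 95% confidence intervals (lines) of 20 of the 21 cholesterol synthesis enzymes in pathway order from top to bottom, for 4SU averaged over CEP and for CEP averaged over 4SU; the filled point has an adjusted p of 0.05 or less. For 4SU, 16 of the 20 points lie below 0 and FDFT1 is the filled one, and for CEP 11 of the 20 lie below 0 and none is filled.

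For CEP averaged over 4SU, edgeR called 0 of the 21 enzymes, against 0.276% of all genes. DESeq2 called 2, against 8.42% of all genes, and limma 0, against 0.107%. Unadjusted p was under 0.05 for 4, against 24.3% of all genes, with LSS and TM7SF2 lower and LBR and SC5D higher. LSS had a log2 fold change of -0.212 ± 0.0659 (SE, adjusted p = 0.08516), and SC5D, a sterol desaturase, one of 0.171 ± 0.0606 (SE, adjusted p = 0.1063). The median of the 21 was -0.02.

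A list of 13 genes for SREBP processing and sterol sensing holds INSIG1, SREBF1 and SREBF2 beside SCAP, the proteases MBTPS1 and MBTPS2 and others. With edgeR, 0 of the 13 passed in any of the 7 comparisons, where 0% to 1.64% of all genes passed. At an unadjusted p under 0.05 there were 0 to 4 of the 13, against 2.63% to 24.3% of all genes. The 4 were for 4SU averaged over CEP, all lower, against 12.6% of all genes. DESeq2 called 1 of the 13 there, against 2.2% of all genes, and 1 in CEP+4SU against DMSO, against 7.03%, and limma called 0. INSIG2, which does the same work as INSIG1 but is not itself an SREBP target, had 18.91 to 24.43 CPM without 4SU and 18.43 to 25.26 CPM with it. The narrower range lay within the wider, and 4SU averaged over CEP gave a log2 fold change of -0.021 ± 0.0882 (SE, adjusted p = 0.9489).

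Of 12 genes for sterol uptake, transport and the oxysterol receptors LXR, 11 had enough counts. Of these 11, edgeR called 0 in any comparison, where 0% to 1.64% of all genes passed. For 4SU averaged over CEP, 2 of the 11 were at an unadjusted p under 0.05, both lower, against 12.6% of all genes. In the other comparisons 1 to 3 were, against 2.63% to 24.3% of all genes. DESeq2 called 1 for CEP averaged over 4SU, against 8.42% of all genes, and 0 in the other 6, against 0% to 7.03%. With limma 0 passed, against 0% to 0.164% (pseudocount 1).

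The fatty acid branch, driven mainly by SREBP-1, was read from 12 genes, of which 2, ACLY and SCD, fell for 4SU averaged over CEP, where 0.384% of all genes passed with lower values. ACLY encodes ATP citrate lyase, which supplies the acetyl-CoA that both sterols and fatty acids are made from. It had 624.3 to 708.4 CPM without 4SU and 513.3 to 587.7 CPM with it, without overlap, and its log2 fold change was -0.273 ± 0.0481 (SE, adjusted p = 0.01508). SCD encodes stearoyl-CoA desaturase. It had 446.1 to 484.6 CPM without 4SU and 380.3 to 427.8 CPM with it, again without overlap, and its log2 fold change was -0.212 ± 0.0447 (SE, adjusted p = 0.03449). ACACA, the acetyl-CoA carboxylase, was also without overlap, at -0.234 ± 0.061 (SE, adjusted p = 0.09004). Of all genes, 0.863% had all 6 libraries with 4SU below all 6 without. In the list, 10 of the 12 genes had values below 0, with a median of -0.125. ACLY fell in CEP+4SU against DMSO too, by 0.299 on the log2 scale (adjusted p = 0.03668), as 1 of the 12, against 1.64% of all genes.

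These calls also depended on single libraries and on the tool. That of ACLY for 4SU was lost without DMSO 1 or 3 or 4SU 2 or 3 (adjusted p up to 0.0723), and that of ACLY in CEP+4SU against DMSO without any of 7 libraries (DMSO 1, 2 or 3, 4SU 2 or 3, CEP+4SU 2 or 3, adjusted p up to 0.174) and without CEP 2 and CEP+4SU 2 together. That of SCD was lost without any of 9 libraries (DMSO 1, 2 or 3, CEP 1, 4SU 1, 2 or 3, CEP+4SU 1 or 3), with adjusted p up to 0.164. Without 1 of the libraries named, 0.0328% to 0.452% of all genes passed for 4SU averaged over CEP, against 0.558%. For CEP+4SU against DMSO 0.0766% to 0.64% passed, and 0.863% without CEP 2 and CEP+4SU 2, against 1.64%. With limma neither gene passed (adjusted p 0.0509 to 0.098), and SCD did not with upper-quartile scaling (0.0649) or library size alone (0.0977).

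Across the 12 libraries, the sterol genes varied together to unequal degrees, which is given as a description, since libraries of a group share their treatment. Pearson's r of log2 CPM was 0.9 between IDI1 and SQLE, 0.825 between FDPS and FDFT1 and 0.813 between FDFT1 and SQLE. HMGCS1 and SREBF1 followed the others less closely. HMGCS1 had 0.512 for IDI1, 0.074 for FDPS and -0.558 for SREBF1. SREBF1 had -0.388 for IDI1, -0.005 for INSIG1 and, at the highest, 0.521 for SREBF2. Among 10327 genes with a mean of at least 10 CPM, those most like HMGCS1 were HNRNPH2 (r = 0.905), TMEM14A (0.884), HNRNPA3 (0.87), NIP7 (0.869) and OXCT1 (0.859). Those most like INSIG1 were RAB9A (r = 0.94), SLC2A12 (0.907), RPL13AP5 (0.904), SLC25A15 (0.904) and ARNTL (0.895). Of the other 7 sterol genes, FDFT1 stood nearest to INSIG1, at place 36 with 0.753, and IDI1 nearest to HMGCS1, at place 1566.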

How the data were processed

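RNA-Seq libraries of HEK293T cells were analysed in 4 groups of 3, grouped by the sample labels. The counts were made by the authors, who filtered reads, aligned them to GRCh38 with HISAT2 (2.0.5 in the submitters' processing notes) and counted fragments on genes with featureCounts (1.5.0-p3), and as deposited they are whole numbers without normalization. The deposited FPKM values, on a linear scale, were made by the authors by dividing the counts by gene length and an adjusted library size, which was 0.981 to 1.03 of the total count.

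Counts were filtered with filterByExpr (minimum count 10, minimum total 15), scaled by TMM and fitted over all 12 libraries with the quasi-likelihood test of edgeR 4.0.16 (R 4.3.3), with Benjamini-Hochberg adjustment over 17729 genes at 0.05. The 7 comparisons were CEP, 4SU and CEP+4SU against DMSO, CEP+4SU against 4SU, CEP and 4SU each averaged over the other, and their interaction. SE and intervals are from this fit. The methods of the study name DESeq2 and edgeR. Alternatives were DESeq2 1.42.0, limma 3.58.1 on log2(FPKM + 1) and log2(FPKM + 0.1), other scalings and filters, a replicate block, the libraries compared alone, removal of trends on GC content or length (transcripts of GENCODE 29), and each library left out. Leaving out CEP replicate 2 and CEP+4SU replicate 2 together was chosen after seeing the data. The fit was also run on simulated data, the outcome of which is not given here.

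The text names the 8 genes, genes of 5 lists past the threshold, INSIG2, and the 5 genes most like HMGCS1 and INSIG1. All 69 list genes were matched by symbol. CYP51A1, SC5D, ACACA, GGPS1, PGGT1B and the ends of lists were named after their values were seen. Members and lists were chosen with earlier results of these data known. Some genes that the rule selects are not reported here, and list counts include them. A deposited table of group FPKM values was not used.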

Additional observations from a re-analysis of the deposited data

How the results depend on the processing

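For 4SU averaged over CEP, where edgeR with TMM called 1 of the 8 genes, DESeq2 called 4 (2.2% of all genes), removal of the GC trend 4 (3.78%) and no low-count filter 3 (0.873%), whereas upper-quartile scaling, library size alone and limma with either pseudocount called 0 (0.147% to 0.451%). For CEP+4SU against DMSO, with 0 in the reported fit, DESeq2 called 2 (7.03% of all genes), GC removal 3 (1.19%), no low-count filter 1 (3.46%) and the libraries compared alone 1 (3.36%). For CEP averaged over 4SU, no low-count filter called 1, SREBF1, against 0 (4.06% against 0.276% of all genes). Leaving out 1 library gave 0 to 2 genes for 4SU averaged over CEP, where 0.0328% to 0.687% of all genes passed. It gave 0 in the other 6 comparisons, where 0% to 11.8% of all genes passed. The replicate block called 3 of the 8 for 4SU averaged over CEP and 2 for CEP+4SU against DMSO, and over all genes 336 and 1667 against 99 and 290. Deviations of same-numbered libraries correlated at -0.047 to 0.141 over 18 pairs (mean 0.027), 1 of them over 0.1. Those of libraries with other numbers correlated at -0.158 to 0.055 over 36 pairs (mean -0.013), 0 of them over 0.1. Of 12 libraries, 7 correlated best with their own number, and CEP replicate 2 and CEP+4SU replicate 2, which stood apart, share a number. The reported fit did not use the numbers. Whether they pair the libraries, and the cause of the added calls, was not tested.

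Of 1320 alternative fold changes of the 8 genes, 88 had the opposite sign, none of them past the threshold in either fit. With library size alone the median of all genes for 4SU moved to 0.042 and 7 of the 8 genes were below 0, as 7 of the 8 were with GC removal. Each of the 8 genes had at least 577 counts in each library, and each group had 3 libraries.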

Other observations

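Isoprenoids leave the sterol pathway after IDI1 and FDPS for prenylated proteins, dolichol and ubiquinone. With edgeR, 0 of 11 genes of these side branches passed in any of the 7 comparisons, where 0% to 1.64% of all genes passed. DESeq2 called 1 in CEP+4SU against DMSO, where 7.03% of all genes passed, and 1 for CEP averaged over 4SU, where 8.42% did. It called 0 in the other 5, where 0% to 2.2% did, and limma called 0. For 4SU averaged over CEP, 8 of the 11 had values above 0 with a median of 0.062, and 2 were at an unadjusted p under 0.05, DHDDS and PGGT1B, both higher, against 12.6% of all genes. In CEP+4SU against DMSO there were 4 at that p, 3 higher and 1 lower, against 21.4% of all genes. PGGT1B, a subunit of a protein prenyltransferase, had a log2 fold change of 0.392 ± 0.111 (SE, adjusted p = 0.07068), and GGPS1, which makes the longer isoprenoid for protein prenylation, one of 0.336 ± 0.13 (SE, adjusted p = 0.1482). No difference between these genes and the sterol enzymes was tested.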
